A study of Mus musculus with 8 samples.

Results

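Potassium channel genes, the genes of the Kcn nomenclature, were followed in ribosome-associated mRNA of mouse spinal cord. All 92 protein-coding genes whose mouse symbol is Kcn, a letter code for the subfamily and a number were taken, of 38924 genes in the deposited tables. They comprise 30 voltage-gated pore subunits, 10 electrically silent voltage-gated subunits, 15 inward rectifiers, 14 two-pore leak channels, 8 calcium- or sodium-activated channels and 15 accessory subunits. The rule used the symbol alone and no measured value, but it was chosen with earlier results of these data known. A filter on low counts left 69 of the 92 for testing.

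The study precipitated ribosomes through an HA tag on Rpl22, which belongs to the large subunit of the ribosome. All mice were Rpl22 +/-, wild type for Gars and of the strain background B6.CgxB6.129. Cre mice also carried Chat-Cre, which places the tag in all cholinergic cells and not only in motor neurons, whereas Ctrl mice lacked Cre and served to measure mRNA precipitated without any tagged ribosome. The 4 groups of 2 animals each were Cre crushed (animals 35 and 52, aged 18 and 9 weeks), Ctrl crushed (51 and 58, both 9 weeks), Cre uncrushed (10 and 3, both 8 weeks) and Ctrl uncrushed (4 and 6, both 8 weeks). Crushed mice had a crush of the sciatic nerve on 1 side, and uncrushed mice had none. Whole spinal cord was used, so that motor neurons with and without an injured axon were averaged in each crushed library. How long after the crush the cords were taken is stated in no source used here. Crush cannot be told apart from age, nor from a number that the titles of uncrushed libraries alone carry. Title and genotype entry were at odds for Cre uncrushed animal 3 (entered as Chat +/+) and for Ctrl uncrushed animal 4 (entered as Chat +/-). Groups follow the titles, and where a named gene lost its call in uncrushed mice without both, this is said beside it. Each library came from 1 animal, and p-values measure the spread between these animals.

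Library totals ran from 4826979 to 11522721 expected counts, and 3 counts corresponded to 0.19 to 1.17 CPM (counts scaled to a common library total). Summed CPM of the motor neuron markers Chat, Slc5a7, Prph, Mnx1 and Isl1 ran from 1088 to 1292 in Cre libraries, against 47.9 to 129 in Ctrl libraries, and 4 of the 5 were higher in Cre in both nerve states. Mnx1 was at 0 in both Ctrl uncrushed libraries, and animals 3 and 4 held the motor neuron levels of their titles (1292 CPM in animal 3 and 129 CPM in animal 4). All 6 oligodendrocyte and all 6 astrocyte markers were lower in Cre in both nerve states, as were 5 and 4 of 6 microglia markers in the uncrushed and crushed state, 5 and 6 of 6 endothelial and pericyte markers, 4 and 3 of 6 interneuron markers, 4 and 3 of 4 Schwann cell markers, and 1 and 0 of 8 sensory ganglion markers, of which 5 were tested. Mitochondrial ribosomal RNA took 1.61 to 5.53% of counts in Cre libraries and 11.5 to 48.2% in Ctrl libraries. The part of these differences in the results below was not tested. In such bulk samples, fewer cells of a type and less RNA per cell cannot be told apart.

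Potassium channels let potassium leave the cell and so set the resting potential, end the action potential and limit repetitive firing. Pore subunits of the voltage-gated, inward rectifier and two-pore classes differ in how they open, silent subunits alter the Kv2 channels they join, and accessory subunits change gating or transport of the pore. In motor neurons, two-pore channels of the TASK type carry a leak current that transmitters can close, whereas in astrocytes and oligodendrocytes the inward rectifier Kir4.1 takes up potassium released by active neurons.

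Promoter windows are shown for a gene that was higher in Cre (Kcng4, the silent subunit with the highest TPM in Cre libraries), a gene that was lower (Kcnj10, the member with the highest TPM in Ctrl libraries) and the axonal subunit Kcna2. Each window holds the 300 bases around the annotated start in RefSeq (GRCm38.p6), printed 5′ to 3′ on the gene's strand, at chr8:119635631-119635930 (minus strand) for Kcng4, chr3:107101317-107101616 (plus strand) for Kcna2 and chr1:172340960-172341259 (plus strand) for Kcnj10. Capitals mark the GC box, searched as GGGCGG or its reverse complement CCGCCC.
Kcng4: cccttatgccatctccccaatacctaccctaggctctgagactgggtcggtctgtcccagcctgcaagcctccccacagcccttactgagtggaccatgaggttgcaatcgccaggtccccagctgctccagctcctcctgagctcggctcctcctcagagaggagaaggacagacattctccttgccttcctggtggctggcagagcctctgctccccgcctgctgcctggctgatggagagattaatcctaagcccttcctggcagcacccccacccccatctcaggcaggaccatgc
Kcna2: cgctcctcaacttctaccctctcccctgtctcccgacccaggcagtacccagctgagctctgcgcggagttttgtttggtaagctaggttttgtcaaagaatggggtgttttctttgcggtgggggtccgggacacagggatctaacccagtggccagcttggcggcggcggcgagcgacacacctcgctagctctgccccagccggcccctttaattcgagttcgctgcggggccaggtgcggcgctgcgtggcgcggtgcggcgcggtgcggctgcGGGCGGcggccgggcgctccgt
Kcnj10: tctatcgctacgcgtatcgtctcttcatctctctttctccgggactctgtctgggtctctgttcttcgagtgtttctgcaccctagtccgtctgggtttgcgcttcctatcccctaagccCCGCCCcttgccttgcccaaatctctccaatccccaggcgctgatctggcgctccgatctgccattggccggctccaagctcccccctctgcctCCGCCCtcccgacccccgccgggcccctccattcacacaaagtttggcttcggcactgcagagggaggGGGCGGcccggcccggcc
The Kcng4 window held 4 CG dinucleotides and no GC box, the Kcna2 window 31 and 1, and the Kcnj10 window 21 and 3. Of 32851 mouse promoters of the same length, 38.0% held as few CG dinucleotides as Kcng4 or fewer, 76.9% as few as Kcnj10 or fewer and 90.5% as few as Kcna2 or fewer, and the median was 7. The GC box was found in 35.7% of these promoters and in 42 of the 67 members with an entry. TATAAA, searched on both strands, was found in 13.6% of all promoters and in 5 members, and in none of the 3 windows shown. These matches describe the letters and not a bound factor.

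The make-up of potassium channel mRNA by class differed between Cre and Ctrl libraries. Levels between genes were compared as TPM (transcript abundance scaled to a common total), which divide by gene length, and each class is given as its share of the summed TPM of all 92 genes within a library. Inward rectifiers took 9.68 to 11.3% of the sum in the 4 Cre libraries, against 20.3 to 22.1% in the 4 Ctrl libraries. Silent subunits took 6.33 to 8.27% in Cre libraries and 1.56 to 2.39% in Ctrl libraries, and two-pore channels 9.31 to 13.0% and 5.53 to 6.13%. These ranges did not overlap for any of the 3 classes. Accessory subunits took 22.6 to 28.2% in Cre and 15.0 to 20.1% in Ctrl libraries, and calcium- or sodium-activated channels 2.78 to 4.17% in Cre and 4.55 to 10.0% in Ctrl libraries. The ranges of these classes did not overlap either. Voltage-gated subunits remained the largest class in both, with 39.5 to 45.9% in Cre and 45.7 to 46.8% in Ctrl libraries, where the ranges overlapped. The shares are a description and were not tested.

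**Figure D1:**
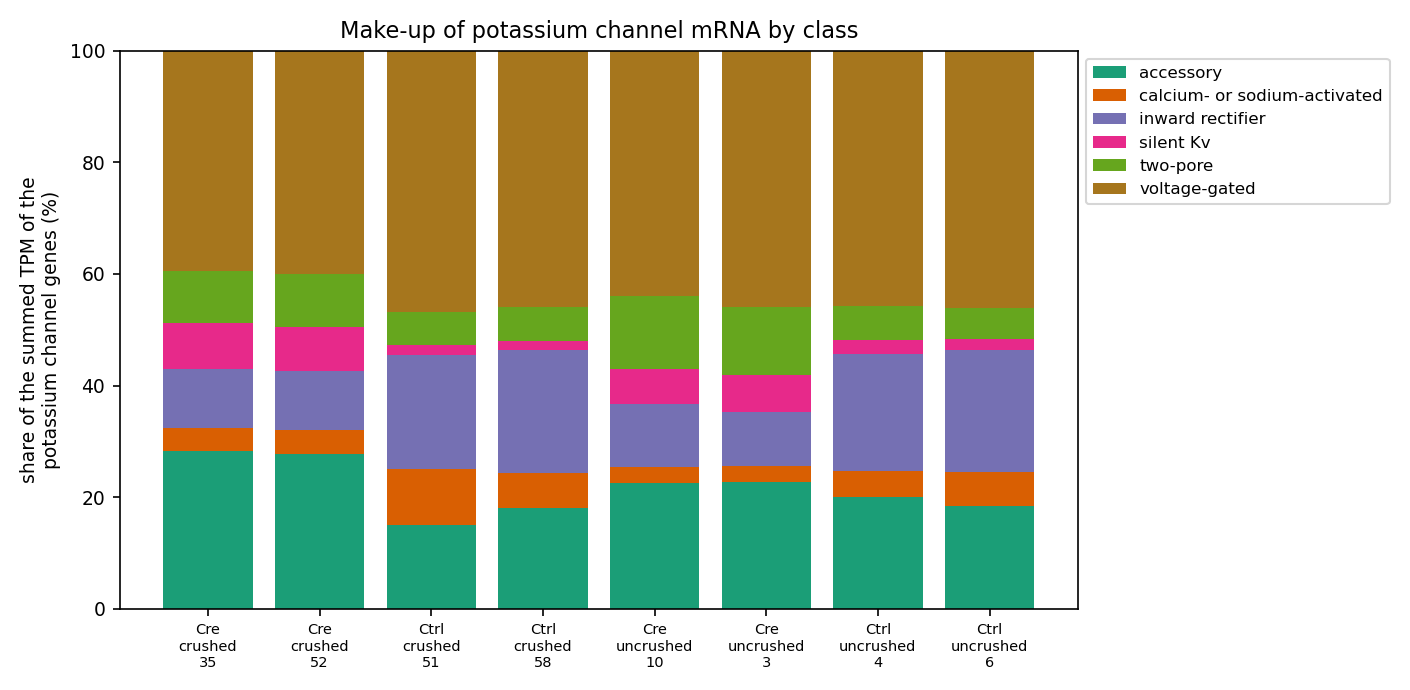
Share of the summed TPM of the 92 potassium channel genes taken by each class (vertical axis, %), with 1 bar for each library, Cre beside Ctrl in each nerve state. Inward rectifiers take 9.68 to 11.3% in Cre libraries and 20.3 to 22.1% in Ctrl libraries, and silent subunits 6.33 to 8.27% and 1.56 to 2.39%.

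Single genes lay behind these shares. Kcnab2, a beta subunit of Kv1 channels, had the highest mean TPM of the Cre libraries (244). High levels were also found for Kcna1 (158), Kcna2 (143), Kcnk9 (137), Kcng4 (125) and Kcnj14 (105). Kcnab2 ranked first among the members in all 4 Cre libraries, and 5th to 8th in the Ctrl libraries. Kcnj10, the Kir4.1 gene, ranked first in all 4 Ctrl libraries, and 15th to 25th in the Cre libraries. It took 0.634 to 1.87% of the members' TPM in Cre libraries and 10.7 to 14.2% in Ctrl libraries. Kcnj14 took 4.43 to 7.19% in Cre libraries and 0.462 to 1.42% in Ctrl libraries. Most of the Kir share of Ctrl libraries was thus Kcnj10, whereas Kcnj14 had the highest mean TPM of the inward rectifiers in Cre libraries.

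Cre was then compared with Ctrl gene by gene, separately in each nerve state, to ask which channel mRNAs the tag enriches. Calls were made at an adjusted p of 0.05 (edgeR's quasi-likelihood test, Benjamini-Hochberg over all 15208 genes tested). In uncrushed mice 18 of the 69 tested members (26.1%) were higher in Cre and 18 (26.1%) lower, where 20.6% of all genes tested were called higher and 21.9% lower. In crushed mice 18 (26.1%) were higher and 12 (17.4%) lower, against 21.6% and 21.3% of all genes. The median log2 fold change of the tested members was 0.26 in uncrushed and 0.20 in crushed mice, beside -0.03 and -0.08 over all genes. The shares called are near the background, and members differed among themselves in direction. Scaling by library size alone changed the split in uncrushed mice to 27 higher and 8 lower (4753 and 1463 of all genes, whose median then was 0.65), whereas in crushed mice it was 16 and 8 (2837 and 1922 of all genes). Among the lower calls it lost in uncrushed mice were Kcna4, Kcna6, Kcnab3, Kcnc1, Kcng2, Kcnip2, Kcnj6, Kcnj8 and Kcnn2. In crushed mice it lost the lower calls of Kcna4, Kcnc1, Kcnd2 and Kcnq3 and the higher calls of Kcnb2 and Kcnk12. Without both libraries with a contradictory genotype entry, 9 members were higher in uncrushed mice, of which 8 were among the 18, and 13 were lower. The lower count in uncrushed mice was 11 without Cre animal 10 and also 11 without Cre animal 3, and that in crushed mice was 7 without Cre animal 35.

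The comparisons in uncrushed and crushed mice share no library. However, both come from the fit of all 8 libraries with 1 common estimate of the spread, so that their calls are not independent. Among the tested members, 15 (21.7%) were called higher in both, beside 16.5% of all genes tested, among them Kcnab1, Kcnab2, Kcnb2, Kcnc4, Kcng1, Kcng4, Kcnh1, Kcnh2, Kcnip1, Kcnip4, Kcnj14, Kcnk3 and Kcnk9. Lower in both were 9 (13.0%), beside 15.7% of all genes, namely Kcna4, Kcna6, Kcnc1, Kcnh7, Kcnip3, Kcnj10, Kcnj13, Kcnj16 and Kcnmb1, and no member was called in opposite directions. The shared genes were 15 of the 18 higher genes in each state, and 9 of the 12 lower genes in crushed and of the 18 in uncrushed mice. The sign was the same in both for 63 of the 69 (91.3%) and for 86.2% of all genes. The members' shares are thus near those of all genes. Of the others, 3 were called higher in uncrushed mice only (Kcna1, Kcna2, Kcnh5) and 3 in crushed mice only (Kcnd1, Kcnj12, Kcnk12). Lower in uncrushed mice only were 9 (among them Kcnab3, Kcng2, Kcng3, Kcnip2, Kcnj6, Kcnj8, Kcnk6 and Kcnn2), lower in crushed mice only 3 (Kcnd2, Kcnq3, Kcnq5), and 27 were called in neither. The difference between the 2 nerve states itself was called for no member, and several genes called in 1 state passed the test in the other under an alternative, as given below. Across 15 alternative settings, grouping by the genotype entry aside, Kcnab1, Kcnab2, Kcnc4, Kcng1, Kcng4, Kcnj14, Kcnk3 and Kcnk9 were called higher in both nerve states in every one, and Kcnh7, Kcnip3, Kcnj10, Kcnj13 and Kcnj16 lower. Ages differed within the Cre crushed group alone. Age as a covariate is therefore no check separate from leaving out Cre crushed animal 35, and cannot adjust for age.

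**Figure D2:**
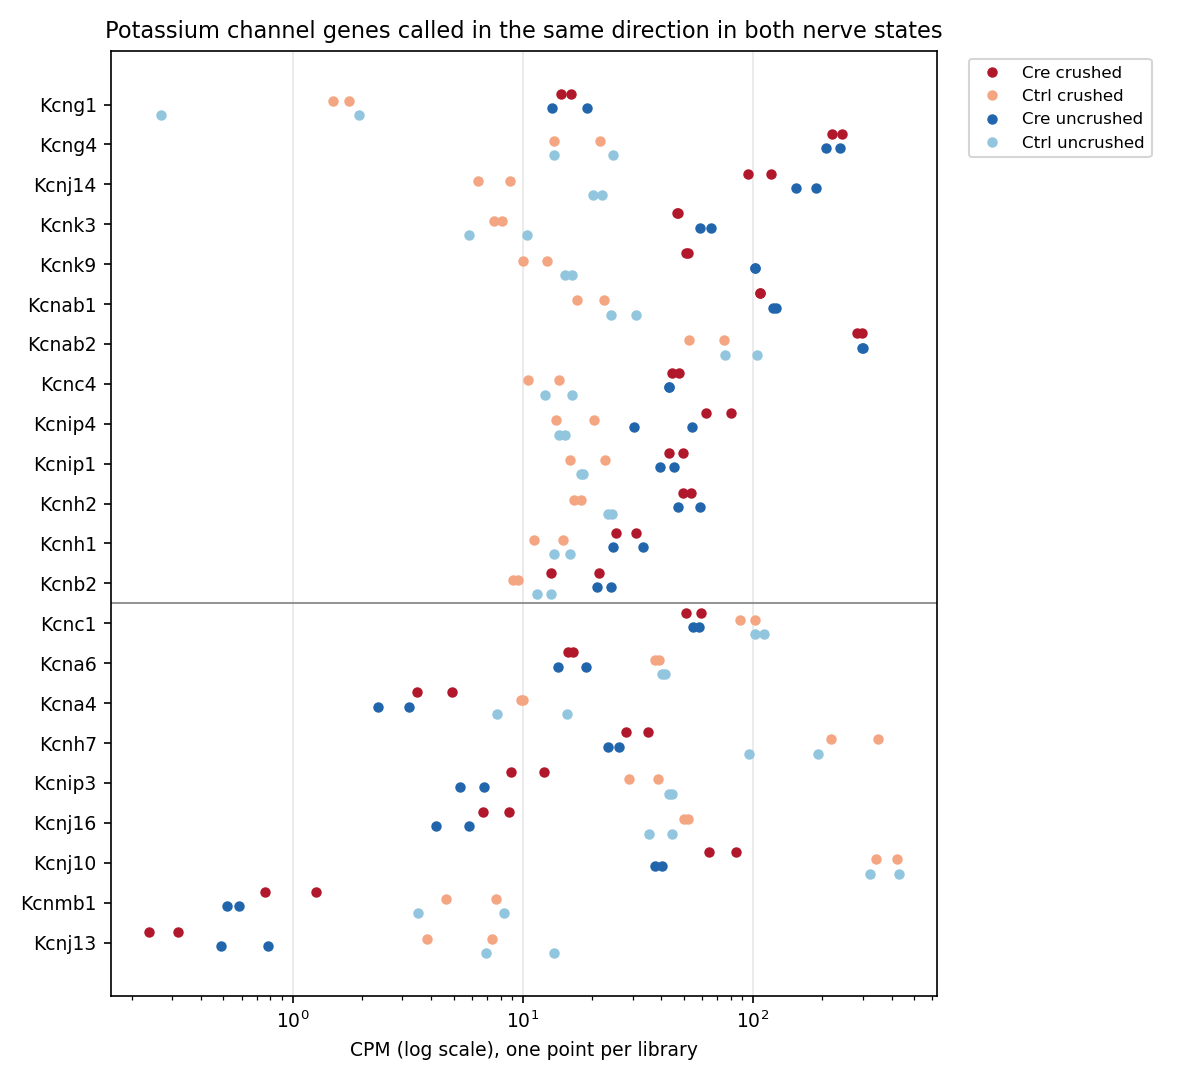
CPM in each library (horizontal axis, log scale) of 13 of the 15 potassium channel genes called higher in Cre in both nerve states (above the line) and the 9 called lower in both (below it), with 1 point per library and 4 colours for the groups. For Kcng4 the Cre libraries lie between 209 and 243 CPM and the Ctrl libraries between 13.6 and 24.6 CPM, and for Kcnj10 the Cre libraries lie between 37.5 and 84.6 CPM and the Ctrl libraries between 324 and 433 CPM.

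**Figure D3:**
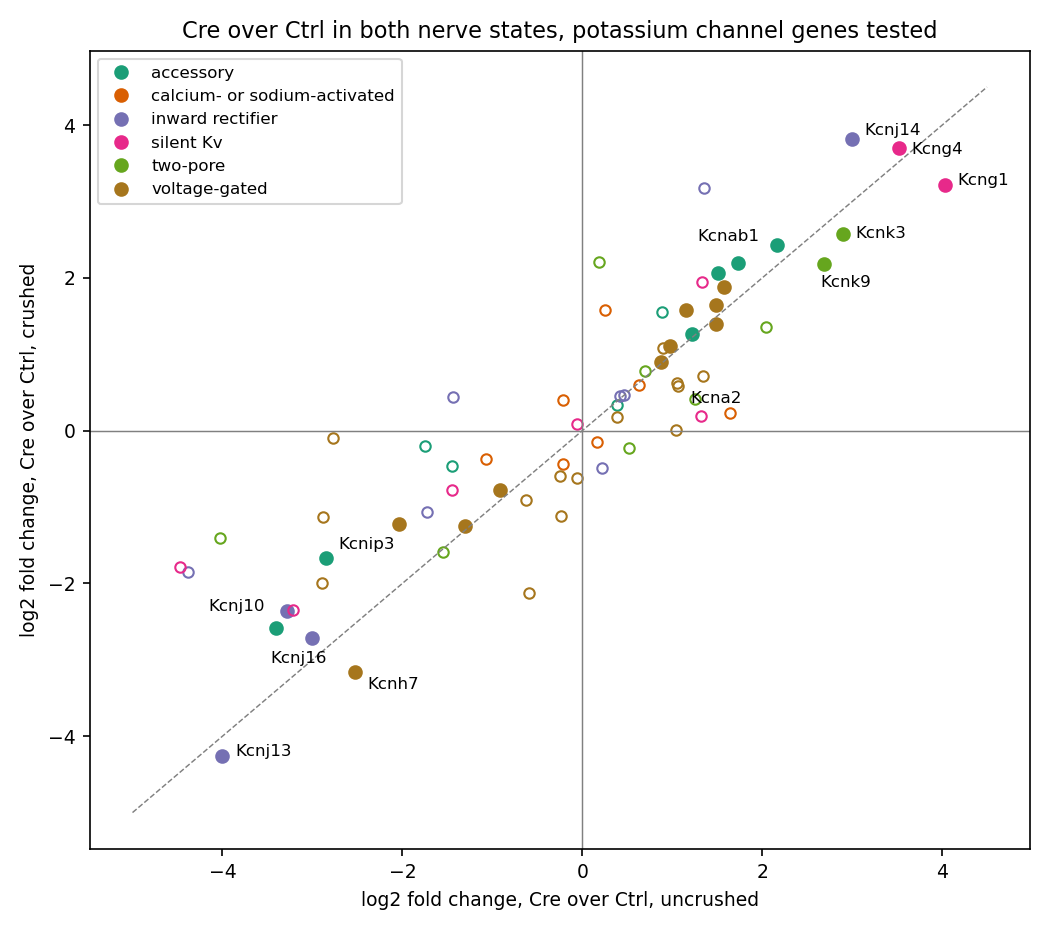
Log2 fold change of Cre over Ctrl in uncrushed (horizontal axis) and crushed mice (vertical axis) for the 69 tested potassium channel genes, coloured by class. Filled points were called in the same direction in both, open points were not, and the dashed line marks equal values. The silent subunits Kcng1 and Kcng4 and the inward rectifier Kcnj14 lie at the upper right and the inward rectifiers Kcnj10, Kcnj13 and Kcnj16 at the lower left.

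Inward rectifiers conduct best near and below the resting potential. Of 11 tested, 1 was higher (9.09%) and 5 lower (45.5%) in uncrushed mice, beside 20.6% and 21.9% of all genes. In crushed mice 2 were higher (18.2%) and 3 lower (27.3%), beside 21.6% and 21.3% of all genes. No class was tested against the shares of all genes. Kcnj14 encodes Kir2.4, described in rat in motor nuclei of the brainstem. It stood at 119.5 and 95.02 CPM in Cre crushed libraries, against 6.38 and 8.83 CPM in Ctrl crushed libraries. In uncrushed mice it stood at 188 and 154 CPM in Cre libraries, against 20.3 and 22.2 CPM in Ctrl libraries. Every Cre library thus lay above every Ctrl library. Kcnj14 was 14.2-fold higher in Cre crushed mice (log2 3.82 ± 0.28, adjusted p = 2.58e-05) and 8.02-fold higher in Cre uncrushed mice (3.00 ± 0.26, adjusted p = 4.55e-05). Kcnj12, another subunit of the Kir2 family, stood at 11.5 and 13.1 CPM in Cre crushed and 1.36 and 1.33 CPM in Ctrl crushed libraries, and was called there (log2 3.18 ± 0.57). Without crush it stood at 8.46 and 12.3 CPM in Cre libraries, and at 7.02 CPM in Ctrl animal 4 and 1.60 CPM in Ctrl animal 6 (1.35 ± 0.55, adjusted p = 0.0688). Without Ctrl animal 4 that value was 2.73 (adjusted p = 0.00570) and without both libraries with contradictory entries 2.43 (adjusted p = 0.0264), and the call was also made with no filter (adjusted p = 0.0160) and with library size alone (0.00997).

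Kcnj10 and Kcnj16, which encodes the Kir5.1 subunit that joins Kir4.1, were lower in Cre. Kcnj10 stood at 64.3 and 84.6 CPM in Cre crushed libraries and 343 and 423 CPM in Ctrl crushed libraries (log2 -2.36 ± 0.26, adjusted p = 0.000144). In uncrushed mice it stood at 40.3 and 37.5 CPM in Cre libraries and 324 and 433 CPM in Ctrl libraries (-3.28 ± 0.27, adjusted p = 4.35e-05). The groups did not overlap in either state. Kcnj16 stood at 4.19 to 8.73 CPM over the Cre libraries and 35.5 to 52.0 CPM over the Ctrl libraries (-2.72 ± 0.28 in crushed and -3.002 ± 0.30 in uncrushed mice). The summed CPM of the 6 astrocyte markers ran alongside, at 342 and 488 in Cre crushed, 3063 and 2413 in Ctrl crushed, 207 and 190 in Cre uncrushed and 1406 and 2369 in Ctrl uncrushed libraries. The part of astrocyte mRNA in the Kcnj10 and Kcnj16 values was not tested. Kcnj13 encodes Kir7.1, an inward rectifier of epithelia, and had only 3 to 6 counts in each Cre library, against 23 to 54 in each Ctrl library (-4.25 ± 0.69 in crushed and -4.0002 ± 0.68 in uncrushed mice, or -3.09 in uncrushed mice without both libraries with contradictory entries). It shares 49.1% of its exon bases with Gigyf2 on the opposite strand in GENCODE M21. No source used here states whether the counting used strand, so reads of the 2 genes may be mixed. Kcnj6, a subunit gated by G proteins, was lower in uncrushed mice at 4.03 and 5.36 CPM in Cre and 12.1 and 19.0 CPM in Ctrl libraries (log2 -1.73 ± 0.41), a call lost without Cre animal 10 (adjusted p = 0.0583) or Ctrl animal 6 (adjusted p = 0.0522). In crushed mice Kcnj6 missed the threshold (-1.06, adjusted p = 0.0537) and passed it without either Ctrl uncrushed library or without both libraries with contradictory entries (adjusted p = 0.0407 to 0.0487). Kcnj8, an inward rectifier of pericytes, had 0 and 2 counts in Cre uncrushed libraries, against 10 and 5 in Ctrl uncrushed libraries, too few for a fold change, and its call was lost in 7 of 14 alternatives (grouping by the genotype entry aside), among them leaving out both libraries with contradictory entries (adjusted p = 0.159).

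Two-pore channels carry the background leak. Of 9 tested, 2 were higher (22.2%) and 1 lower (11.1%) in uncrushed mice, beside 20.6% and 21.9% of all genes. In crushed mice 3 were higher (33.3%) and 0 lower, beside 21.6% and 21.3% of all genes. Kcnk3 and Kcnk9, the genes of the acid-sensitive TASK channels, were higher in Cre in both nerve states. Kcnk9 stood at 52.3 and 51.3 CPM in Cre crushed and 12.8 and 10.0 CPM in Ctrl crushed libraries (log2 2.18 ± 0.23, adjusted p = 0.000123). Without crush it stood at 101.9 and 101.8 CPM in Cre libraries and 16.4 and 15.2 CPM in Ctrl libraries (2.69 ± 0.24, adjusted p = 5.04e-05). Both Cre crushed libraries lay below both Cre uncrushed libraries and above every Ctrl library. Kcnk3 stood at 46.5 and 47.0 CPM in Cre crushed, 8.14 and 7.50 CPM in Ctrl crushed, 65.96 and 58.8 CPM in Cre uncrushed, and 5.85 and 10.4 CPM in Ctrl uncrushed libraries. It was higher by 2.58 ± 0.28 in crushed and 2.90 ± 0.30 in uncrushed mice on the log2 scale. Kcnk1, a weakly conducting two-pore subunit, was not called, with 25.7 and 25.2 CPM in Cre crushed, 23.7 and 35.8 CPM in Ctrl crushed, 26.8 and 32.5 CPM in Cre uncrushed, and 18.3 and 23.0 CPM in Ctrl uncrushed libraries, and passed the test with library size alone in uncrushed mice (adjusted p = 0.0261). Kcnk12 was higher in crushed mice only (38 and 33 counts in Cre, against 3 and 4 counts in Ctrl libraries, adjusted p = 0.0401), a call lost on leaving out either library of any group but Ctrl uncrushed. Kcnk6 was lower in uncrushed mice only (1 and 4 counts in Cre, against 4 and 28 in Ctrl libraries), a call lost without Cre animal 10 or Ctrl animal 6.

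Silent subunits do not open alone and modify Kv2 channels. Kcng4, a marker of fast motor neurons, stood at 243 and 219.7 CPM in Cre crushed and 21.7 and 13.7 CPM in Ctrl crushed libraries (log2 3.70 ± 0.32, adjusted p = 5.12e-05). In uncrushed mice it stood at 209 and 238 CPM in Cre and 13.6 and 24.6 CPM in Ctrl libraries (3.52 ± 0.33, adjusted p = 5.37e-05). Kcng1 stood at 16.2 and 14.6 CPM in Cre crushed and 1.76 and 1.50 CPM in Ctrl crushed libraries (3.22 ± 0.49). In uncrushed mice it had 103 and 196 counts in Cre libraries, against 5 and 1 counts in Ctrl libraries 4 and 6 (4.03 ± 0.60, or 5.90 without Ctrl animal 4 and 3.12 without Ctrl animal 6). Thus both were higher in Cre in each state, and the size for Kcng1 in uncrushed mice rests on few Ctrl counts. Kcng2 and Kcng3 were called lower in uncrushed mice only, on 3 and 7 counts for Kcng2 and 2 and 4 counts for Kcng3 in Cre, against 21 and 9 counts and 26 and 20 counts in Ctrl libraries. Both calls were lost without Cre animal 10, Cre animal 3 or Ctrl animal 4, and without both libraries with contradictory entries (adjusted p = 0.207 for Kcng2 and 0.184 for Kcng3). In crushed mice Kcng2 passed the test by DESeq2 (adjusted p = 0.0456), with only the groups compared (0.0358) and without Ctrl uncrushed animal 6 (0.0470). Kcnb2, a Kv2 pore subunit that silent subunits join, stood at 21.5 and 13.2 CPM in Cre crushed, 9.09 and 9.50 CPM in Ctrl crushed, 21.1 and 24.2 CPM in Cre uncrushed, and 13.3 and 11.5 CPM in Ctrl uncrushed libraries, and was called in both (0.90 ± 0.32 in crushed and 0.88 ± 0.33 in uncrushed mice). The call was lost on leaving out any of 5 of the 8 libraries in crushed mice and any of 6 of the 8 in uncrushed mice, where it was also lost without both libraries with contradictory entries (adjusted p = 0.183).

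Of 24 tested voltage-gated pore subunits, 9 were higher (37.5%) and 5 lower (20.8%) in uncrushed mice, beside 20.6% and 21.9% of all genes. In crushed mice 7 were higher and 7 lower (29.2% each), beside 21.6% and 21.3% of all genes. Subunits of 1 subfamily went in both directions. Among the Kv3 subunits, which repolarise fast-spiking neurons, Kcnc4 stood at 43.0 to 47.8 CPM over the Cre libraries and 10.5 to 16.3 CPM over the Ctrl libraries, and was higher by 1.88 ± 0.26 in crushed and 1.57 ± 0.27 in uncrushed mice. Kcnc1 was lower, at 51.4 to 59.2 CPM over the Cre libraries, against 87.7 to 111 CPM over the Ctrl libraries (-0.78 ± 0.21 in crushed and -0.92 ± 0.21 in uncrushed mice). The Kcnc1 call in uncrushed mice was lost without Cre animal 10 (adjusted p = 0.0501) or 3 (0.0716) and without both libraries with contradictory entries (0.0871), and that in crushed mice without Cre animal 35 (0.184), Cre animal 52 (0.0715) or Ctrl animal 58 (0.0620). Kcnc2 was called in neither state.

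The Kv1 subunits Kcna1 and Kcna2 sit beside the nodes of Ranvier. Kcna1 stood at 606 and 572 CPM in Cre crushed and 395 and 367 CPM in Ctrl crushed libraries (log2 0.63 ± 0.24, adjusted p = 0.0531), and at 812 and 925 CPM in Cre uncrushed and 373 and 462 CPM in Ctrl uncrushed libraries (1.06 ± 0.24, adjusted p = 0.00539). Kcna2 stood at 196 and 185 CPM in Cre crushed and 148 and 106 CPM in Ctrl crushed libraries (0.58 ± 0.26, adjusted p = 0.0939), and at 269 and 336 CPM in Cre uncrushed and 119 and 171 CPM in Ctrl uncrushed libraries (1.06 ± 0.27, adjusted p = 0.00862). Cre libraries lay above Ctrl libraries in each state, and both genes were called in uncrushed mice. In crushed mice Kcna1 was called by DESeq2 (adjusted p = 0.0115), with no filter (0.0366), with only the groups compared (0.0452) and without Ctrl uncrushed animal 4 (0.0364) or 6 (0.0369). The Kcna2 call was lost without Cre animal 3 (0.93, adjusted p = 0.0694) or Ctrl animal 4 (0.86, adjusted p = 0.0537), and without both (0.70, adjusted p = 0.195). The Kcna1 call was lost without both (0.86, adjusted p = 0.122). Kcna6 was lower in both states (-1.25 ± 0.24 in crushed and -1.30 ± 0.25 in uncrushed mice) but shares 39.6% of its exon bases with the antisense gene Gm26673, so that its reads are uncertain. The Kcna6 call in uncrushed mice was lost with library size alone (-0.60, adjusted p = 0.243). Kcna4 was lower as well, at 2.34 to 4.94 CPM in Cre and 7.75 to 15.6 CPM in Ctrl libraries (-1.22 ± 0.43 and -2.03 ± 0.47, the crushed value first). In uncrushed mice the Kcna4 value was -1.68 (adjusted p = 0.0662) without both libraries with contradictory entries. Its call in crushed mice was lost without any 1 crushed library or either Cre uncrushed library (adjusted p = 0.0537 to 0.234).

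Kv10 to Kv12 subunits include the erg channels, which slow repetitive firing. Kcnh7, the erg3 gene, was lower in Cre, at 35.1 and 28.0 CPM in Cre crushed and 218 and 348 CPM in Ctrl crushed libraries (log2 -3.16 ± 0.36, adjusted p = 0.000147). Without crush it stood at 23.5 and 26.3 CPM in Cre and 95.9 and 192 CPM in Ctrl libraries (-2.53 ± 0.35, or -1.88 without Ctrl animal 6). Kcnh2, the erg1 gene, was higher, at 54.0 and 49.7 CPM in Cre crushed and 17.9 and 16.7 CPM in Ctrl crushed libraries (1.58 ± 0.23). In uncrushed mice Kcnh2 stood at 47.1 and 59.0 CPM in Cre and 23.4 and 24.3 CPM in Ctrl libraries (1.15 ± 0.24), a call lost without both libraries with contradictory entries (adjusted p = 0.0634). Kcnh2 and Kcnh7 thus differed in opposite directions. Of the eag subunits, Kcnh1 was higher in both states (1.11 and 0.98, the crushed value first), and Kcnh5 was called in uncrushed mice (1.34, adjusted p = 0.0109), where it stood at 24.1 and 32.9 CPM in Cre and 7.02 and 15.0 CPM in Ctrl libraries. The Kcnh1 call in uncrushed mice was lost without Cre animal 3 (adjusted p = 0.152) or Ctrl animal 6 (0.0682) and without both libraries with contradictory entries (0.133), and that in crushed mice without Cre animal 52 (0.0721). The Kcnh5 call was lost without Cre animal 3 (adjusted p = 0.0851) and without both libraries with contradictory entries (0.177), and its value was 2.09 without Ctrl animal 6. In crushed mice Kcnh5 stood at 23.7 and 20.4 CPM in Cre and 13.6 and 13.2 CPM in Ctrl libraries (0.72, adjusted p = 0.0993), and passed the test without Ctrl uncrushed animal 4 (adjusted p = 0.0279) or 6 (0.0291), without both libraries with contradictory entries (0.0343) and with only the groups compared (0.0337).

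Kv7 subunits carry the M current, which restrains firing. The Kv7 subunit Kcnq3 was lower in crushed mice, at 82.2 and 83.1 CPM in Cre and 218 and 139 CPM in Ctrl libraries (-1.11 ± 0.26, adjusted p = 0.00594), and was not called in uncrushed mice (-0.23 ± 0.26). The Kcnq3 call was lost without Cre animal 35 (adjusted p = 0.0682), Ctrl animal 51 (0.0516) or Cre animal 52 (0.0503). Kcnq5 was lower in crushed mice (13.7 and 11.7 CPM in Cre, against 59.2 and 52.3 CPM in Ctrl libraries), while its Ctrl uncrushed libraries differed from each other (7.02 and 41.4 CPM). Its value in uncrushed mice was -0.59 (adjusted p = 0.383), or -1.36 without both libraries with contradictory entries (adjusted p = 0.0306), -1.29 without Ctrl animal 4 (adjusted p = 0.00585) and 1.30 without Ctrl animal 6 (adjusted p = 0.0171). Among the A-type Kv4 subunits, Kcnd1 was higher in crushed mice, at 46.2 and 39.4 CPM in Cre and 11.7 and 29.2 CPM in Ctrl libraries, and Kcnd2 was lower there, at 15.4 and 16.4 CPM in Cre and 23.9 and 35.7 CPM in Ctrl libraries (1.08 ± 0.35 and -0.90 ± 0.28). The Kcnd1 call was lost without Cre animal 35, Ctrl animal 51 or Cre animal 52 (adjusted p = 0.136, 0.118 and 0.0521), and its value was 1.92 without Ctrl animal 58. In uncrushed mice Kcnd1 stood at 52.4 and 54.1 CPM in Cre and 28.1 and 29.1 CPM in Ctrl libraries (0.90, adjusted p = 0.0600), and passed the test without Ctrl crushed animal 51 (adjusted p = 0.00674) or 58 (0.00635), with no filter (0.00534), with only the groups compared (0.0278) and with library size alone (0.00449). The Kcnd2 call was lost without Cre animal 35, Cre animal 52 or Ctrl animal 58 (adjusted p = 0.178, 0.116 and 0.193).

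Calcium- and sodium-activated channels were the class with the fewest calls and also the fewest tested members. Of 7 tested, 0 were higher and 1 was lower in uncrushed mice, beside 20.6% and 21.9% of all genes. None was called in crushed mice, beside 21.6% of all genes called higher and 21.3% lower. However, 1 member was called higher in crushed mice with no filter (adjusted p = 0.0246) and with only the groups compared (0.0434). There 1 member had an unadjusted p under 0.05 in edgeR (51.9% of all genes had one). Kcnma1, the BK pore subunit, stood at 37.7 and 39.4 CPM in Cre crushed, 31.5 and 19.3 CPM in Ctrl crushed, 34.9 and 42.9 CPM in Cre uncrushed, and 22.2 and 27.8 CPM in Ctrl uncrushed libraries (log2 0.60 ± 0.28 and 0.63 ± 0.29, adjusted p = 0.100 and 0.0958). It passed the test in crushed mice without Ctrl crushed animal 51 (1.03, adjusted p = 0.0307), and in uncrushed mice without Ctrl crushed animal 51 or 58 (adjusted p = 0.0476 and 0.0438) and with library size alone (0.0335). SK channels carry the afterhyperpolarisation of motor neurons. Of their genes, Kcnn2 was lower in uncrushed mice at 9.50 and 9.93 CPM in Cre and 17.5 and 23.2 CPM in Ctrl libraries (-1.08 ± 0.32, adjusted p = 0.0196), a call lost without Cre animal 10, Cre animal 3 or Ctrl animal 6 (adjusted p = 0.102 to 0.108) and without both libraries with contradictory entries (0.0698). Kcnn3 was not called, at 5.89 and 4.51 CPM in Cre crushed, 6.79 and 2.00 CPM in Ctrl crushed, 6.64 and 4.77 CPM in Cre uncrushed, and 0.390 and 2.94 CPM in Ctrl uncrushed libraries. Its value in uncrushed mice was 1.65 (adjusted p = 0.104), or 3.88 without Ctrl animal 6 (adjusted p = 0.0333), and it passed the test with no filter (0.0253) and with library size alone (0.0476). The sodium-activated Kcnt1 was not called either (-0.44 ± 0.29 and -0.21 ± 0.31). A missed threshold with 2 animals a group does not show equal levels.

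Accessory subunits held some of the highest levels. Kcnab1 and Kcnab2 encode beta subunits that bind Kv1 channels in the cytoplasm. Kcnab1 stood at 107 CPM in both Cre crushed and 22.5 and 17.2 CPM in Ctrl crushed libraries (log2 2.43 ± 0.24), and at 122 and 126 CPM in Cre uncrushed and 24.2 and 31.0 CPM in Ctrl uncrushed libraries (2.16 ± 0.24). Kcnab2 stood at 299 and 284 CPM in Cre crushed and 52.8 and 75.1 CPM in Ctrl crushed libraries (2.19 ± 0.26), and at 297 and 299 CPM in Cre uncrushed and 75.3 and 104 CPM in Ctrl uncrushed libraries (1.73 ± 0.26). The beta subunits were called in both states with log2 fold changes of 1.73 to 2.43, whereas Kcna1 and Kcna2, pore subunits of the channels they bind, were at 0.58 to 1.06. Kcnab3, the other beta subunit, was lower in uncrushed mice at 14.1 and 16.1 CPM in Cre and 35.5 and 46.5 CPM in Ctrl libraries (-1.45 ± 0.27). The Kcnab3 call was lost with library size alone (-0.78, adjusted p = 0.127).

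Of the Kv channel interacting proteins, which bind Kv4 channels, Kcnip1 and Kcnip4 were higher and Kcnip3 was lower in both states. Kcnip1 stood at 39.4 to 49.8 CPM over the Cre libraries and 16.0 to 22.8 CPM over the Ctrl libraries, and its call in uncrushed mice was lost without both libraries with contradictory entries (1.18, adjusted p = 0.0638). Kcnip2 was lower in uncrushed mice only (14 and 22 counts in Cre, against 19 and 23 in Ctrl libraries, which were less deep), a call lost without Cre animal 10, Cre animal 3 or Ctrl animal 4 and without both libraries with contradictory entries (adjusted p = 0.114). Kcnip4 stood at 80.3 and 62.5 CPM in Cre crushed and 13.98 and 20.3 CPM in Ctrl crushed libraries (log2 2.06 ± 0.32). In mice without crush it stood at 30.3 and 54.3 CPM in Cre libraries 10 and 3, and 14.4 and 15.2 CPM in Ctrl libraries (1.51 ± 0.34), a call lost without Cre animal 3 (adjusted p = 0.0544) and without both libraries with contradictory entries (adjusted p = 0.107). Kcnip3, also known as DREAM, stood at 8.92 and 12.3 CPM in Cre crushed, 28.9 and 38.5 CPM in Ctrl crushed, 6.77 and 5.36 CPM in Cre uncrushed, and 44.5 and 43.0 CPM in Ctrl uncrushed libraries (-1.66 ± 0.28 and -2.85 ± 0.31). Kcnmb1, a BK beta subunit of smooth muscle, had 12 and 16 counts in Cre crushed, 34 and 46 in Ctrl crushed, 4 and 6 in Cre uncrushed, and 9 and 31 in Ctrl uncrushed libraries (-2.59 ± 0.63 and -3.40 ± 0.72, the crushed value first, and -2.56 in uncrushed mice without Ctrl animal 6). Its call in crushed mice was lost without Cre animal 35 (adjusted p = 0.0983) or Ctrl animal 58 (0.0634).

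The 23 members below the filter had 0 to 67 counts summed over all 8 libraries (median 12), the most for Kcnj11, and reached at most 5.46 CPM in any library (Kcnk18). Kcnk16 and Kcnmb3 had no count. The 23 were Kcna3, Kcna7, Kcna10, Kcne1, Kcne2, Kcne3, Kcnh3, Kcnh4, Kcnj1, Kcnj4, Kcnj5, Kcnj11, Kcnk5, Kcnk7, Kcnk15, Kcnk16, Kcnk18, Kcnmb2, Kcnmb3, Kcnn4, Kcnq1, Kcns1 and Kcnv2. The highest-level members of the remaining subfamilies, Kcnmb4, Kcns3, Kcnu1, Kcnv1, Kcne4 and Kcnf1, passed the filter and were called in neither state. Kcns3 passed the test in uncrushed mice without Ctrl animal 6 (2.13, adjusted p = 0.0363), with no filter (0.0497) and with library size alone (0.0187), and Kcnv1 in crushed mice in 4 alternatives (1.99 to 2.00, adjusted p = 0.0299 to 0.0437). The mean TPM of these 6 genes over the Cre libraries was 12.7, 4.595, 1.81, 1.25, 0.965 and 0.568, in that order.

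Proteins known to bind potassium channels or to share their currents were taken as a list of 33 genes, of which 31 were tested. Higher in Cre were 15 in uncrushed and 13 in crushed mice, and lower 3 and 5. Of all genes tested, 20.6% and 21.6% were called higher and 21.9% and 21.3% lower, the uncrushed share first. The medians of the list were 0.70 and 0.57, beside -0.03 and -0.08 over all genes. The list was chosen with earlier results of these data known, so that its counts are only a description. Abcc9, the sulfonylurea receptor that joins Kcnj8, was lower (-2.52 and -2.24). Chrm2, the muscarinic receptor of the cholinergic synapses on motor neurons, was higher (log2 1.92 and 2.65), as were Vapa (1.83 and 1.86) and Vapb (1.12 and 1.16), which bind Kv2 channels at contacts with the endoplasmic reticulum. For each pair the crushed value stands first.

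Crush was compared with no crush among Cre libraries to ask whether injury shifts channel mRNA on tagged ribosomes. No member was called at an adjusted p of 0.05, where 0.0723% of all genes were called (11 genes). At an unadjusted p under 0.05 there were 9 members, 4 with a positive and 5 with a negative value, of 69 (13.0%), against 9.34% of all genes. DESeq2 called 2 members, Kcnk9 and Kcnj10, and a fit restricted to the 4 Cre libraries called Kcnk9. The 0.0723% belongs to the edgeR fit of all 8 libraries, and the shares of all genes called by these other fits are not given here. The values below are therefore descriptions of 2 animals against 2. The median log2 fold change of the members was -0.03, beside 0.03 over all genes. Scaling by library size alone moved the median of all genes to 0.47.

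Among the named members the value farthest below 0 was that of Kcnk9, whose 52.3 and 51.3 CPM in Cre crushed libraries stood against 101.9 and 101.8 CPM in Cre uncrushed libraries (log2 -0.97 ± 0.22, unadjusted p = 0.000802, adjusted p = 0.163). Over 16 alternatives its adjusted p ran from 0.0323 to 1 and its value from -0.99 to -0.20, the last with grouping by the genotype entry, and it was -0.53 with scaling by library size alone. In Ctrl libraries the value was -0.47 ± 0.25, and the difference between the Cre and Ctrl effects was -0.51 (adjusted p = 0.907). Kcnj14 stood at 119.5 and 95.02 CPM in Cre crushed and 188 and 154 CPM in Cre uncrushed libraries (-0.67 ± 0.23, adjusted p = 0.407). In Ctrl libraries it stood at 6.38 and 8.83 CPM in crushed and 20.3 and 22.2 CPM in uncrushed mice (-1.49 ± 0.28, unadjusted p = 0.000202, adjusted p = 0.158), so that a value below 0 was not confined to Cre. The difference between the Cre and Ctrl effects was 0.82 (adjusted p = 0.830). Kcnj2, a Kir2 subunit, had -0.88 ± 0.31 in Cre libraries, Kcna2 -0.67 ± 0.26 and Kcna1 -0.56 ± 0.24 (adjusted p = 0.407, 0.463 and 0.511). With scaling by library size alone Kcnj14, Kcna2 and Kcna1 stood at -0.22, -0.24 and -0.13.

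Above 0 in the same comparison were Kcnj10, Kcnip3, Kcnip4, Kcnab3 and Kcnj16. Kcnj10 stood at 64.3 and 84.6 CPM in Cre crushed and 40.3 and 37.5 CPM in Cre uncrushed libraries (log2 0.94 ± 0.25, adjusted p = 0.237), and at 343 and 423 CPM in Ctrl crushed and 324 and 433 CPM in Ctrl uncrushed libraries (0.02 ± 0.25). Kcnj16 had 0.63 ± 0.29 in Cre libraries. The 6 astrocyte markers had a median of 0.96 in the Cre comparison, with none called. Their summed CPM was 342 and 488 in Cre crushed and 207 and 190 in Cre uncrushed libraries. Other lists had medians above 0 as well, again with none called. These were 1.60 for microglia, 0.98 for endothelial and pericyte, 0.73 for oligodendrocyte, 0.50 for Schwann cell, 0.50 for sensory ganglion and 0.15 for interneuron markers. The motor neuron markers had -0.40. The part of these markers in the Kcnj10 and Kcnj16 values was not tested. Kcnip3 had 0.81 ± 0.29 in Cre libraries and -0.38 ± 0.28 in Ctrl libraries, a difference of 1.19 ± 0.41 (adjusted p = 0.823). Kcnip4 had 0.75 ± 0.30, or 0.39 without Cre uncrushed animal 10 and 1.24 without Cre uncrushed animal 3, and Kcnab3 had 0.65 ± 0.26. Kcng4, Kcnab2, Kcnh2 and Kcnc4 had log2 values between -0.03 and 0.10 in Cre libraries.

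**Figure D4:**
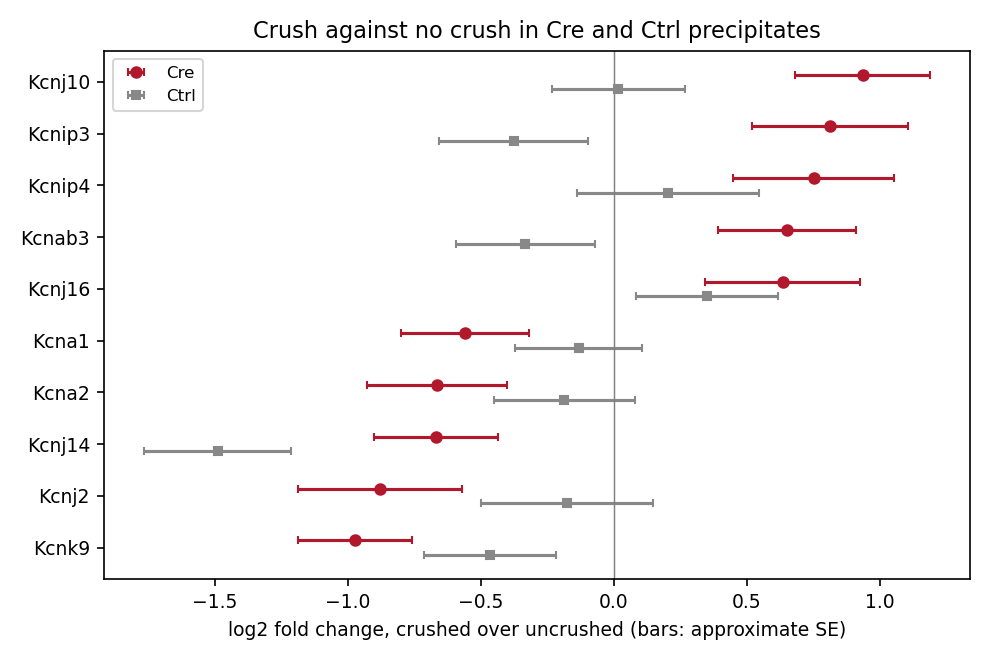
Log2 fold change of crushed over uncrushed (horizontal axis) for the 5 potassium channel genes with the smallest unadjusted p in each direction among Cre libraries, in Cre (red circles) and Ctrl libraries (grey squares), with approximate standard errors as bars. In the fit of all 8 libraries none was called. Kcnk9 lies at -0.97 in Cre and -0.47 in Ctrl, and Kcnj14 at -0.67 in Cre and -1.49 in Ctrl.

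Among Ctrl libraries crush gave no called member either, where 0.0723% of all genes were called, and 7 members had an unadjusted p under 0.05 (12.8% of all genes had one). DESeq2 called 1 member there, Kcnj14 (adjusted p = 0.00238), which was also called with no filter (0.00215). The shares of all genes called by these alternatives are not given here. The difference between the crush effects in Cre and Ctrl libraries was called for no member and for no gene (0%), with 7 members at an unadjusted p under 0.05 against 5.95% of all genes, and DESeq2 called none. For Kcna2 that difference was -0.48 (adjusted p = 0.922).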

How the data were processed

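Messenger RNA precipitated with HA-tagged ribosomes from whole spinal cord was sequenced in 8 libraries, 2 in each of 4 groups taken from the titles. Expected counts and TPM per gene were estimated by the authors and deposited for each library, with Bowtie2 2.2.0 and RSEM 1.2.12 per the submitters' processing notes. Neither genome build nor annotation is given in the sources used here, and the files' genes carry no coordinates here. Symbols were matched for 37607 of 38924 gene identifiers. RSEM divides reads shared between genes, and 13 members had a count that was not whole (tolerance 0.005).

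The deposited expected counts were rounded and tested with edgeR 4.0.16 in R 4.3.3 (quasi-likelihood test, TMM scaling, minimum count 10 and total 15, 4 group means with 4 residual degrees of freedom, Benjamini-Hochberg adjustment over 15208 genes, threshold 0.05). CPM are TMM-scaled. The value after ± is an approximate standard error, the log2 fold change over the root of its F. Variation between animals (edgeR's BCV) was 0.202 for Cre and 0.322 for Ctrl libraries, and the common fit pools both. The deposited TPM were used only for levels between genes and for shares within a library. The floor of 3 counts covers counting error only. The fit was tested on simulated data.

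Named genes were Kcnj14 and Kcna2, up to 10 called members per direction and comparison by p, the member with the highest TPM of each subfamily in Cre libraries, 17 channels of motor neurons or glia, and the 5 smallest p-values per direction of the crush comparison in Cre libraries. Low-count calls outside these are also named, after their values were seen. Some genes are not reported here by name, and counts include them. The members and lists were chosen with earlier results of these data known. Alternatives were DESeq2 1.42.0 and its size factors, library size alone, no filter, only the groups compared, age as a covariate, grouping by the genotype entry, and leaving out libraries.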

Additional observations from a re-analysis of the deposited data

How the results depend on the processing

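Grouping by the genotype entry, which exchanges 2 uncrushed libraries, left 0 higher and 0 lower members in either nerve state, and the cause of the changes below was not tested. The other counts that moved by over 1.5 times were 9 higher in uncrushed mice without both libraries with contradictory entries, 8 lower in uncrushed mice and 4 called for crush in Ctrl with library size alone, 7 lower in crushed mice with age as a covariate, 2 called for crush in Cre and 1 in Ctrl by DESeq2, 1 called for crush in Cre with only the groups compared, and 3 called for crush in Ctrl with no filter. Leaving out 1 library gave 13 to 20 higher and 11 to 18 lower in uncrushed mice, 15 to 23 higher and 7 to 14 lower in crushed mice, 0 for crush in Cre, 0 to 1 for crush in Ctrl (1 without Ctrl uncrushed animal 6), and 0 for the difference of the crush effects. No paired analysis was possible because the groups shared no animal number.

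With grouping by the genotype entry, the log2 fold change of Cre over Ctrl in uncrushed mice turned to -0.24 for Kcng4, -0.10 for Kcnab1, -0.32 for Kcng1, -0.11 for Kcnab2, -0.084 for Kcnc4, 0.076 for Kcnip3, 0.97 for Kcnj13, 0.69 for Kcna4, -0.39 for Kcna2, -0.23 for Kcna1, -0.63 for Kcnip4, -0.24 for Kcnh2, -0.044 for Kcnd1, -0.30 for Kcnma1, -0.44 for Kcns3, -1.12 for Kcnv1, 2.41 for Kcnf1, -0.29 for Kcnk1 and -0.051 for Kcnn3. That of crush in Cre turned to -1.29 for Kcnj10, -1.24 for Kcnip3, -0.048 for Kcnab3, -1.39 for Kcnj16 and 0.038 for Kcnj14. With library size alone the uncrushed value turned to 0.46 for Kcnt1, 0.47 for Kcnu1, 0.042 for Kcnd2 and 0.46 for Kcnq3, and without both libraries with contradictory entries to 1.88 for Kcnf1. Leaving out 1 library turned the sign for uncalled members, which ranged in uncrushed mice from -2.35 to 1.59 for Kcnf1, -0.030 to 0.78 for Kcnmb4, -0.50 to 0.17 for Kcnt1 and -0.80 to 0.23 for Kcnu1. In crushed mice they ranged from -1.71 to 0.00016 for Kcnf1, -0.46 to 0.15 for Kcnk1, -0.33 to 1.41 for Kcnn3, -0.14 to 0.72 for Kcns3 and -0.021 to 1.08 for Kcnu1. Members at or near the floor of 3 counts are those the depth limits most.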
